A study of Homo sapiens with 8 samples.

Results

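The matrix metalloproteinases (MMPs), the ADAMTS proteases and the tissue inhibitors of metalloproteinases (TIMPs) were examined on 8 Agilent 2-colour gene expression arrays. All genes were taken whose array name begins with MMP, TIMP or ADAMTS followed by a number. This gave 46 of the 43317 gene names on the array, namely 23 MMP genes, 19 ADAMTS genes and 4 TIMP genes, read by 59 of 58201 probes. The choice used gene names only, and no measured value. On every array, Cy3 marked total RNA of untransfected (mock) cells and Cy5 marked total RNA of transfected cells of the same line. PC3 prostate cancer cells received the siRNA labelled si-PIR-2 on 1 array and the siRNA labelled si-PIR-3 on another, both against PIR. SK-MES-1 lung squamous cell carcinoma cells received miR-144-5p or miR-144-3p, PANC1 pancreatic cancer cells received miR-130-5p or miR-130-3p, and miR-204-5p was introduced into SW1990 pancreatic cancer cells and into MDA-MB-231 breast cancer cells. A lipid reagent served for all transfections, each of which was read on 1 array. Dyes were never exchanged between the channels, so that an effect of a dye on a probe cannot be told apart from an effect of transfection. The mock cells had received no control RNA, so an effect of a transfected RNA and of the transfection itself cannot be told apart either.

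MMPs and ADAMTS proteases are zinc-dependent enzymes that are secreted or held at the cell membrane and cut the proteins of the extracellular matrix. Most are made as inactive precursors, and TIMPs bind the active enzymes and block them. In carcinomas, this system is known for its part in invasion, although many of its enzymes are made by stromal cells rather than by the tumour cells themselves.

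The mature sequences of 3 of the transfected miRNAs are shown because TIMP2 and ADAMTS1, the members with a low ratio on both arrays of a miRNA, were low with them. They are from RefSeq on GRCh38.p14, and the capitals mark the seed, bases 2 to 8.
miR-144-5p: gGAUAUCAucauauacuguaag
miR-144-3p: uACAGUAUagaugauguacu
miR-204-5p: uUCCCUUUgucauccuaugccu
The genomic positions are chr17:28861583-28861604 for miR-144-5p, chr17:28861548-28861567 for miR-144-3p and chr9:70810031-70810052 for miR-204-5p, all on the minus strand. The 2 strands of miR-144 come from the same hairpin and have different seeds. The labels of the miR-130 arrays do not say which miR-130 gene was meant, and no sequence is given for them.

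PIR, the gene targeted by the siRNAs, was examined first. Its log2 ratio of transfected over mock cells, as the scanner software gave it (the scanner ratio), was -5.46 with si-PIR-2 and -4.27 with si-PIR-3. On the 6 miRNA arrays the PIR ratio was -1.59 with miR-130-5p and lay between -0.24 and 0.05 on the rest. The low PIR ratio was thus on the arrays labelled si-PIR, with a smaller one on the miR-130-5p array.

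All 4 epithelial markers (EPCAM, KRT8, KRT18 and KRT19) were well above background in the mock cells of all 5 lines. Of the tissue markers, KLK3 and KLK2 were not well above background in PC3, KRT5 and KRT6A were not in SK-MES-1, PDX1 was not in SW1990 or PANC1, and SPARC was not in MDA-MB-231. Of 6 fibroblast markers, 2 to 4 passed in each line, with DCN and COL1A2 not well above background in any of the 5. The summed Cy3 intensity of the 6 was 1056 to 1136 in SK-MES-1 against 182 to 338 in the other lines. These sums include probes not well above background. COL1A1 alone had 948 and 858 in SK-MES-1, against 38.2 to 213 in the other lines. Of 4 leukocyte markers on the array, PTPRC and CD14 passed in all lines, at a summed intensity of 117 to 352. The part of such cells or signals in the levels of the members was not tested. Across the arrays 41.4% to 46.4% of probes were well above background in Cy3 and 49.8% to 54.6% in Cy5, and no spot was saturated. A ratio was read only where at least 1 channel was well above background on that array, which is called measured here. For a member with several probes, the brightest one stood for the gene.

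In mock cells, 22 of the 46 members were well above background in PC3 (44.1% of all genes were), 24 in SK-MES-1 (45.5%), 24 in SW1990 (44.0%), 24 in MDA-MB-231 (44.6%) and 20 in PANC1 (41.8%). The members were detected about as often as genes in general in each line. The pattern across lines was less uniform. Of the 46 members, 13 (28.3%, against 35.8% of all genes) were detected in all 5 lines and 14 (30.4%, against 46.3%) in none. The other 19 were detected in some lines only. Of these, 3 were detected in 1 line (6.41% of all genes), 6 in 2 (3.89%), 6 in 3 (3.44%) and 4 in 4 (4.09%). The members' share was above that of all genes for 2, 3 and 4 lines and close to it for 1 line. The 13 found in all lines were MMP1, MMP9, MMP14, MMP15, MMP17, MMP19, MMP24, MMP28, ADAMTS1, ADAMTS7, ADAMTS13, TIMP1 and TIMP2. The 14 found in no line were MMP3, MMP8, MMP12, MMP20, MMP21, MMP26, MMP27, ADAMTS2, ADAMTS5, ADAMTS8, ADAMTS15, ADAMTS18, ADAMTS19 and ADAMTS20. Of the 32 detected members, 10 had their highest level in MDA-MB-231, 9 in SK-MES-1, 6 in PC3, 4 in SW1990 and 3 in PANC1. These counts depend on the scaling of the mock level. Under both other scalings SK-MES-1 was the highest line for MMP14, MMP15 and TIMP2, and under quantile normalization also for ADAMTS7.

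Levels were compared between lines only within a probe, and measured ones as the log2 processed Cy3 signal minus the 75th percentile of its array. The 2 mock channels of PC3, SK-MES-1 and PANC1 differed by a median of 0.11, 0.06 and 0.09 on this log2 scale over the detected members, and by at most 0.66, 0.31 and 0.50. The labels do not say whether these channels held separate cultures, so this spread may be technical. The arrays measure RNA of a whole culture, in which fewer expressing cells and less RNA per cell cannot be told apart. Differences of dim probes were smaller after normexp background correction with an offset of 50 and quantile normalization, and that log2 difference is given as well. A second other scaling, centring on the median of probes detected on all arrays, changed them little. For MMP1 in MDA-MB-231 against SK-MES-1 it gave 8.68 in place of 8.90, and for ADAMTS1 in PC3 against PANC1 4.15 in place of 4.14. Bounds between lines, given as at least a fold, came instead from the Cy3 signal after normexp, loess and a quantile scaling of average intensities between arrays. They are therefore not on the scale of the measured folds.

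Among the collagenases, MMP1 (interstitial collagenase) ranged most widely over the lines. Its Cy3 intensity was 4211 in MDA-MB-231, 648 and 637 in PC3, 278 in SW1990, 115 and 116 in PANC1, and 31.2 and 32.2 in SK-MES-1. Each step in this order was wider than the spread between mock channels, and the probe lies at chr11:102660697-102660756 on hg19. The level in MDA-MB-231 was 7.51-fold that in PC3, 15.8-fold that in SW1990 and 47.8-fold that in PANC1. Against SK-MES-1, where the probe was barely over its background, the log2 difference was 8.90, or 5.89 after quantile normalization. MMP13 (collagenase 3) was detected in PC3, at 68.0 and 67.8, and faintly in SW1990, at 28.0. MMP8, the neutrophil collagenase, was not measured on any array.

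The gelatinases MMP2 and MMP9, which cut denatured collagen and type IV collagen of basement membranes, had different patterns. MMP2 had a Cy3 intensity of 286 and 262 in SK-MES-1, 112 in SW1990 and 61.4 and 57.7 in PANC1, and was not well above background in PC3 or MDA-MB-231. The MMP2 level in SK-MES-1 was at least 7.03-fold that in PC3 and at least 6.82-fold that in MDA-MB-231, where the bound sets the line's lowest signal well above background in place of the dim value. MMP9 was dim in every line, at 29.7 to 57.5. The MMP9 levels of PC3 and PANC1 differed by only 0.03 on the log2 scale, less than the spread between mock channels.

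Matrilysin (MMP7), an MMP without a hemopexin domain that is made by epithelial cells, was restricted to 2 lines. Its Cy3 intensity was 1664 and 1516 in SK-MES-1 and 40.4 and 42.0 in PANC1, and the probe was not well above background in the other 3 lines. The SK-MES-1 level was 66.4-fold that in PANC1 (log2 difference 6.05, or 4.57 after quantile normalization) and at least 41.8-fold that in PC3. The stromelysins were dim: MMP10 passed in PC3 alone at 38.4 and 37.6, MMP11 was at most 47.7, and MMP3 was not detected in any mock line.

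MMP7 and MMP10 were also examined for a loose form of the motif of AP-1, the FOS and JUN factor that is known to act on many MMP promoters. Promoters, from 250 bases before to 50 after the start site, were listed in RefSeq (GRCh38.p14) for 27 of the 46 members. MMP1, MMP2, MMP3, MMP9, MMP12 and MMP13 were among the members without a listed promoter, so theirs were not searched. The motif TGANTCA, with any base at N and therefore the same search on both strands, was in the promoters of 4 of the 27 (14.8%). MMP7 had TGAGTCA, and MMP10, MMP20 and ADAMTS12 had TGAATCA. Whether AP-1 binds any of them was not tested. The motif TGANTCA was in 7.71% of all 35116 promoters, a share over single promoters rather than over genes. The windows of MMP7 and MMP10, the 2 of these MMPs detected in mock cells, are printed with the motif in capitals.
MMP7: aaacactcaaaTGAGTCAcctatttccac
MMP10: aaacacatgcaTGAATCAtactgttggtg
They lie at chr11:102530797-102530825 and chr11:102780678-102780706 on the minus strand of GRCh38.p14, and in both the motif begins 67 bases before the start site.

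Of the membrane-type MMPs, MMP14 (MT1-MMP, which activates the precursor of MMP2) was at 461 in MDA-MB-231, 488 and 459 in SK-MES-1, 401 in SW1990, 209 and 215 in PC3, and 48.8 and 44.0 in PANC1. The first 3 lines lay within 0.11 of each other on the log2 scale, and the order of MDA-MB-231 and SK-MES-1 turned under either other scaling (log2 differences of -0.19 and -0.16 in place of 0.07). PANC1 was 17.5-fold below MDA-MB-231 (log2 difference 4.13, or 2.54 after quantile normalization). MMP15 was highest in SW1990 and SK-MES-1, MMP24 in SK-MES-1, and MMP17, which is held by a glycosylphosphatidylinositol anchor, in PANC1 and PC3. MMP16 was detected in PC3, SK-MES-1 and PANC1 at 35.5 to 58.3, and MMP25 in SW1990 and PANC1 at 30.0 to 38.2. Among the other MMPs, MMP28 (epilysin) stood out in SW1990 with 231, against 41.1 to 47.3 on the arrays of the other 4 lines. This was a 9.66-fold to 11.7-fold higher level, or 1.85 to 1.91 on the log2 scale after quantile normalization. MMP23B was highest in PC3, at 92.2 and 93.0.

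Of the ADAMTS proteases that cut proteoglycans, ADAMTS1 was detected in all lines, at 253 and 256 in PC3, 202 and 196 in SK-MES-1, 112 in SW1990, 114 in MDA-MB-231, and 32.3 and 34.0 in PANC1. PC3 was 17.7-fold above PANC1 (log2 difference 4.14, or 2.01 after quantile normalization), and SW1990 and MDA-MB-231 were alike within the spread between mock channels. ADAMTS9 was brightest in MDA-MB-231, at 100.5, with 44.7 in SW1990, and was not well above background in the other lines. The procollagen N-propeptidases ADAMTS3 and ADAMTS14 were dim and highest in SK-MES-1, at 62.6 and 52.8 and at 57.1 and 55.9, and ADAMTS2 was not detected. ADAMTS10, which is tied to fibrillin microfibrils, was at 209 and 199 in SK-MES-1, 38.0 and 37.4 in PANC1, and not well above background elsewhere. The brightest probe of ADAMTS7 gave 10020 to 12826 in all lines, whereas a second ADAMTS7 probe gave 49.0 to 60.8, so that the level of this gene depends on the probe.

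Of the inhibitors, TIMP1 and TIMP2 were bright in every line, whereas TIMP3 and TIMP4 were each bright in some lines and near background in others. TIMP1 had a Cy3 intensity of 2418 in MDA-MB-231, 1110 and 1149 in PC3, 973 and 989 in SK-MES-1, 779 and 747 in PANC1, and 444 in SW1990. TIMP2 was at 10782 and 9576 in SK-MES-1, 9333 in MDA-MB-231, 4813 and 4843 in PC3, 4729 in SW1990, and 1167 and 1137 in PANC1. MDA-MB-231 and SK-MES-1 had TIMP2 levels within 0.03 of each other on the log2 scale, with an order that turned under either other scaling (-0.47 and -0.20), and PANC1 was 8.72-fold lower. TIMP3, which binds to the matrix and also inhibits ADAMTS proteases, was at 1694 in MDA-MB-231, 386 in SW1990, 232 and 243 in SK-MES-1, and not well above background in PC3 or PANC1. The TIMP3 level in MDA-MB-231 was at least 36.9-fold that in PC3 and at least 35.6-fold that in PANC1. TIMP4 was at 971 and 900 in SK-MES-1, at 43.4 to 61.1 in PC3, SW1990 and MDA-MB-231, and not well above background in PANC1. The SK-MES-1 level of TIMP4 was 19.6-fold to 36.4-fold those of the 3 lines with a measured value. After quantile normalization the log2 difference was 3.38 to 3.74, against 4.29 to 5.19 before. PANC1 thus had the lowest TIMP2 level of the 5 lines and neither TIMP3 nor TIMP4 well above background.

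After transfection, the ratios of the members were read on all 8 arrays. Intensities are given as scanned and ratios after dye normalization, so that a ratio is not the quotient of the intensities beside it. Of the 46 members, 40 were measured on at least 1 array, 16 on all 8, and 6 (MMP8, MMP20, MMP21, ADAMTS8, ADAMTS18 and ADAMTS20) on none. Of 222 measured values, 39 in 22 genes had a scanner ratio of 1 or more, or of -1 or less. For 12 of these 39 only the Cy5 channel was well above background, and the bound on the difference was at most 1.25-fold, so that no size is read from them. Of the other 27, in 15 genes, 3 stayed past 1 when ratios were computed anew from the mean intensities by normexp background correction and loess (the loess ratio): TIMP2 with both strands of miR-144 and MMP1 with si-PIR-3. The remaining 18 measured members did not pass 1 on any array.

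**Figure D1:**
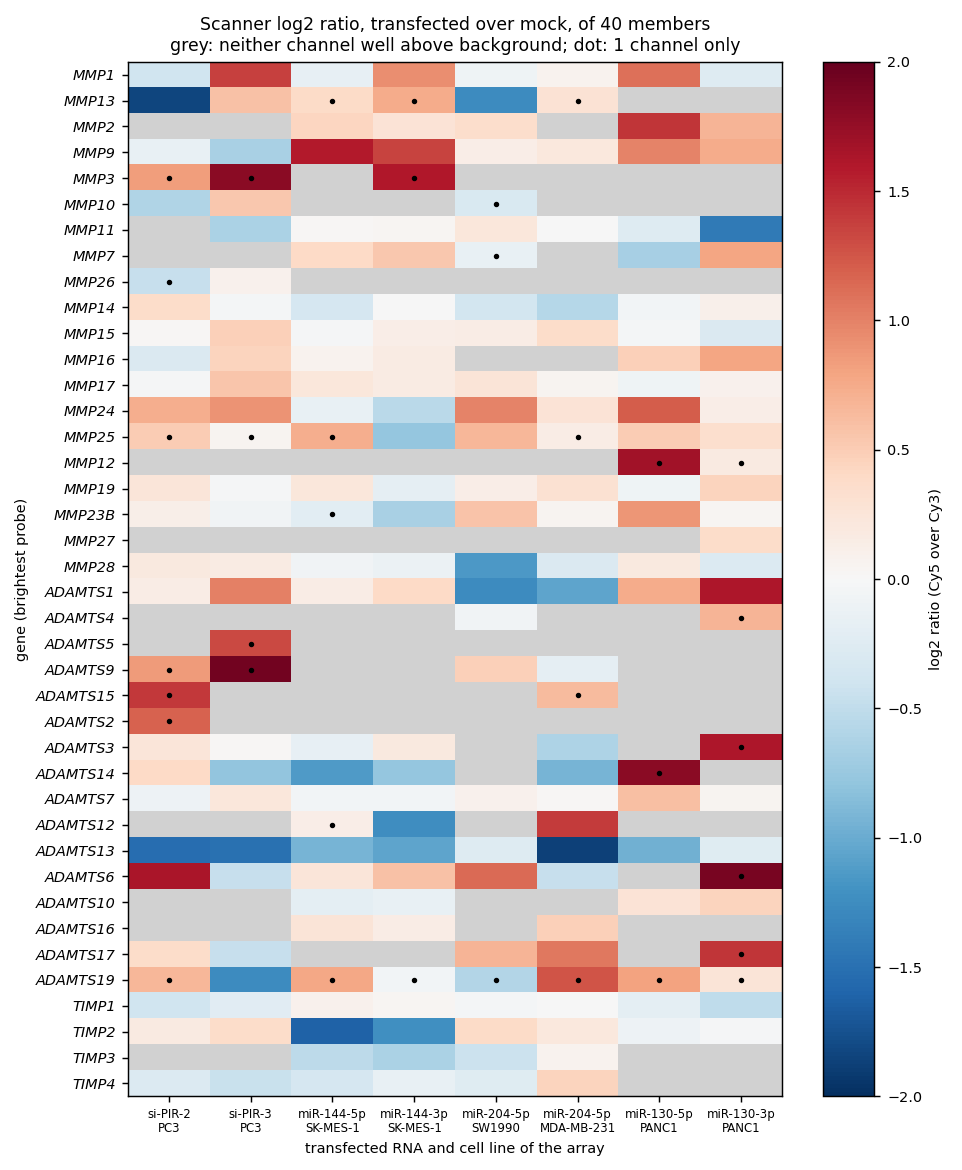
Scanner log2 ratio of transfected (Cy5) over mock (Cy3) cells for the 40 measured members (rows) on the 8 arrays (columns), with grey where neither channel was well above background and a dot where only 1 channel was. TIMP2 is low on both miR-144 arrays, ADAMTS1 on both miR-204-5p arrays, and ADAMTS13 is below 0 on all 8.

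With si-PIR-2, 2 of 29 measured members had a ratio of -1 or less (2.90% of all measured genes) and 3 had 1 or more (5.81%). With si-PIR-3, these numbers were 2 (2.28%) and 5 (3.92%) of 29. The median over the members was 0.175 with si-PIR-2 and 0.090 with si-PIR-3, against 0.048 and 0.045 over all measured genes. With miR-144-5p, 2 of 29 were low (1.96%) and 1 was high (4.12%), and with miR-144-3p 3 of 30 were low (1.12%) and 2 were high (4.46%). With miR-204-5p, 3 of 27 were low (1.93%) and 1 was high (4.56%) in SW1990, and 2 of 28 were low (1.88%) and 3 were high (3.38%) in MDA-MB-231. With miR-130-5p, no member of 23 was low (6.23%) and 5 were high (7.59%), and with miR-130-3p 1 of 27 was low (1.92%) and 4 were high (6.42%). In PANC1 the members' median was 0.479 with miR-130-5p and 0.262 with miR-130-3p, against 0.094 and 0.032 over all measured genes. It was 0.024 with miR-144-5p and 0.014 with miR-144-3p, against 0.039 and 0.024, and with miR-204-5p it was 0.088 in SW1990 and 0.068 in MDA-MB-231, against 0.047 and 0.042. On most arrays the members' share lay above that of all genes in both directions, but the high counts include the 12 values seen through Cy5 alone. These were ADAMTS2 and ADAMTS15 with si-PIR-2, MMP3, ADAMTS5 and ADAMTS9 with si-PIR-3, and MMP3 with miR-144-3p. The rest were ADAMTS19 with miR-204-5p in MDA-MB-231, MMP12 and ADAMTS14 with miR-130-5p, and ADAMTS3, ADAMTS6 and ADAMTS17 with miR-130-3p. The shares of all genes hold such values too. No excess of members is read from these shares, which rest on 0 to 5 members and carry no test because each transfection had 1 array.

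**Figure D2:**
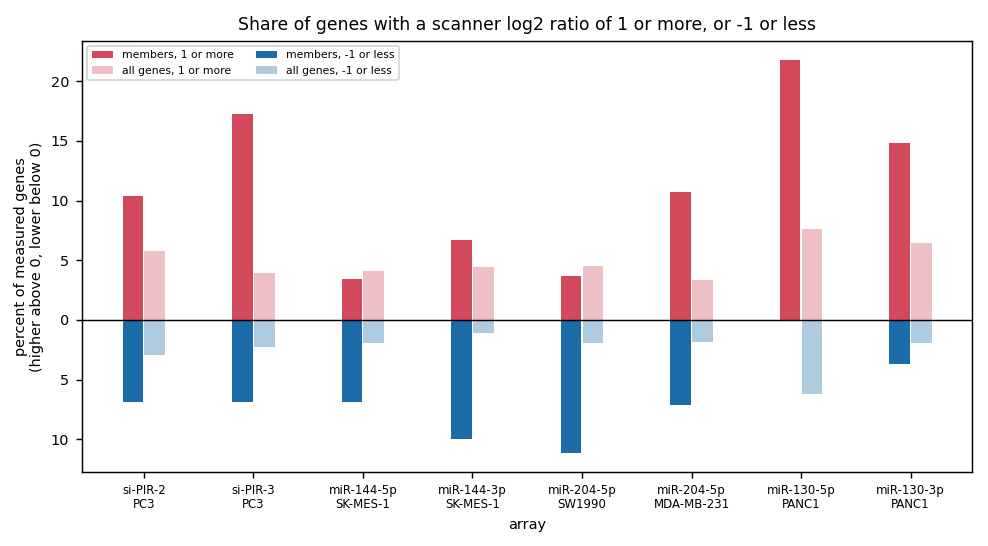
Percent of the measured members (dark bars) and of all measured genes (pale bars) with a scanner log2 ratio of 1 or more (above 0) or of -1 or less (below 0) on each of the 8 arrays. Each dark bar stands for at most 5 members, and those above 0 include members seen through Cy5 alone.

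With the 2 siRNAs against PIR, the collagenases MMP1 and MMP13 had ratios of opposite sign. MMP1 had a ratio of -0.39 with si-PIR-2, at a Cy5 intensity of 974, and of 1.37 with si-PIR-3, at 2720, from mock intensities of 648 and 637. The loess ratios of MMP1 were -0.33 and 1.31. MMP13 had a ratio of -1.83 with si-PIR-2 and of 0.58 with si-PIR-3 (loess -0.70 and 0.35). MMP10 (stromelysin 2) had -0.61 and 0.53 on these arrays (loess -0.18 and 0.11). All 3 lie in a cluster of 9 MMP genes whose probes span chr11:102394029-102813832 on hg19, from MMP7 to MMP13. In PC3, MMP1, MMP10 and MMP13 were the genes of this cluster with both channels well above background, and each was below 0 with si-PIR-2 and above 0 with si-PIR-3. MMP3 of the same cluster was well above background only in Cy5, with scanner ratios of 0.84 and 1.80 and bounds of at least 1.05-fold and 1.25-fold higher. With 1 array per siRNA, the difference between the siRNAs was not tested.

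On the other 6 arrays, MMP1 had a ratio of 1.11 with miR-130-5p (loess 0.79) and of -0.26 with miR-130-3p in PANC1. In SK-MES-1, MMP1 had -0.16 with miR-144-5p and 0.92 with miR-144-3p, where its mock signal was near background, and the loess ratios were -0.02 and 0.24. With miR-204-5p the MMP1 ratio was -0.08 in SW1990 and 0.07 in MDA-MB-231, the line with the highest level. MMP1 thus stayed near 0 where it was brightest. MMP13 had a ratio of -1.26 with miR-204-5p in SW1990, at a mock intensity of 28.0 (loess -0.15), and was seen through Cy5 alone with both strands of miR-144 and with miR-204-5p in MDA-MB-231, at 0.39, 0.74 and 0.28. MMP3 was seen through Cy5 alone with miR-144-3p, with a scanner ratio of 1.61 and a bound of 1.01-fold.

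The gelatinases were above 0 in PANC1. No member was at 1 or more on both PANC1 arrays, as 1.15% of the genes measured on both were. MMP2 had a ratio of 1.43 with miR-130-5p and 0.67 with miR-130-3p (loess 0.81 and 0.38), and MMP9 had 0.99 and 0.74 (loess 0.47 and 0.40). In SK-MES-1, MMP9 had a ratio of 1.58 with miR-144-5p and of 1.34 with miR-144-3p, from mock intensities of 29.7 and 29.9, and loess ratios of 0.39 and 0.33. MMP2 had 0.43 and 0.27 on the same arrays. MMP9 was the member at 1 or more on both miR-144 arrays, which held for 1.02% of the genes measured on both, and its loess ratios were well under 1. In PC3, MMP9 had -0.15 with si-PIR-2 and -0.65 with si-PIR-3. With miR-204-5p it had 0.13 in SW1990 and 0.21 in MDA-MB-231. MMP2 had 0.35 with miR-204-5p in SW1990 and was not measured in PC3 or MDA-MB-231.

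MMP14 was close to 0 on most arrays, with 0.36 and -0.04 for si-PIR, -0.34 and -0.01 for miR-144-5p and miR-144-3p, and -0.05 and 0.09 for miR-130-5p and miR-130-3p. With miR-204-5p its ratio was -0.37 in SW1990 and -0.58 in MDA-MB-231 (loess -0.31 and -0.50). MMP24, another membrane-type MMP, had 1.21 with miR-130-5p (loess 0.63) and 0.13 with miR-130-3p. MMP24 had 0.73 and 0.90 with the siRNAs, -0.15 and -0.54 with miR-144-5p and miR-144-3p, and 0.99 and 0.27 with miR-204-5p in SW1990 and MDA-MB-231. Of MMP15, MMP16, MMP17 and MMP25, none passed 1 on any array. MMP28 had a ratio of -1.15 with miR-204-5p in SW1990, at mock and transfected intensities of 231 and 179 (loess -0.88). SW1990 is the line with the highest MMP28 level, and on the other 7 arrays the MMP28 ratio lay between -0.28 and 0.19. MMP11 had -1.42 with miR-130-3p at a mock intensity of 30.8 (loess -0.19), and -0.63 to 0.23 on the other arrays where it was measured. MMP12 (macrophage elastase) was seen only through Cy5 in PANC1, with a scanner ratio of 1.68 with miR-130-5p and of 0.18 with miR-130-3p, and no size could be given.

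ADAMTS1 was the member at -1 or less on both miR-204-5p arrays, as 0.606% of the genes measured on both were, and no member was at 1 or more on both (0.582%). Its ratio was -1.25 in SW1990, from a mock intensity of 112 to 83.0, and -1.06 in MDA-MB-231, from 114 to 87.0. The loess ratios were nearer to 0, at -0.72 and -0.62. A second ADAMTS1 probe had scanner ratios of -1.34 and -1.07, so that both probes were low in both lines. The first lies at chr21:28209709-28209768 on hg19. On the other 6 arrays the first ADAMTS1 probe was above 0, at 0.15 with si-PIR-2, 1.01 with si-PIR-3, 0.15 and 0.40 with miR-144-5p and miR-144-3p, and 0.74 and 1.62 with miR-130-5p and miR-130-3p. The loess ratio was 0.92 with si-PIR-3 and 0.58 with miR-130-3p, where the mock intensity was 34.0. The second probe was not above 0 on all of these arrays: it gave -0.09 with si-PIR-2 and -0.04 with miR-130-5p, 1.03 with si-PIR-3, 0.12 and 0.27 with miR-144-5p and miR-144-3p, and 1.38 through Cy5 alone with miR-130-3p.

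ADAMTS13, the protease of von Willebrand factor, was below 0 on all 8 arrays. Its ratio was -1.53 and -1.50 with the siRNAs, -0.94 and -1.06 with miR-144-5p and miR-144-3p, -0.26 and -1.87 with miR-204-5p in SW1990 and MDA-MB-231, and -0.96 and -0.24 with miR-130-5p and miR-130-3p. It was the member at -1 or less on both si-PIR arrays, which held for 0.397% of genes, and no member was at 1 or more on both, as 0.700% of genes were. The loess ratios of ADAMTS13 were -0.75 and -0.81 with the siRNAs and lay between -0.81 and -0.09 over the 8 arrays. Its probe has a run of 4 G bases, as have those of 4 other members, and the part of the probe in this result was not tested. A second ADAMTS13 probe, without such a run, was not well above background in Cy3 on any array, at 20.8 to 25.6. It was measured only with miR-130-3p, through Cy5 alone, with a scanner ratio of -0.02. Both the detection of ADAMTS13 in all lines and its ratios thus rest on 1 probe.

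Of the other ADAMTS proteases, ADAMTS6 had 1.63 with si-PIR-2 and -0.45 with si-PIR-3 (loess 0.49 and -0.06), and 1.13 and -0.45 with miR-204-5p in SW1990 and MDA-MB-231 (loess 0.42 and -0.09). Its mock intensities on these arrays were 27.3 to 34.5. ADAMTS6 had 0.25 and 0.59 with miR-144-5p and miR-144-3p. With miR-130-3p it was well above background only in Cy5, with a scanner ratio of 1.90 and a bound of at least 1.05-fold higher. ADAMTS17 had 0.68 and 1.05 with miR-204-5p in SW1990 and MDA-MB-231 (loess 0.24 and 0.20), 0.37 and -0.46 with the siRNAs, and 1.44 through Cy5 alone with miR-130-3p. ADAMTS12 had -1.24 with miR-144-3p and 1.40 with miR-204-5p in MDA-MB-231, at mock intensities of 29.6 and 30.2 (loess -0.12 and 0.39), and 0.13 through Cy5 alone with miR-144-5p. ADAMTS14 had -1.13 and -0.77 with miR-144-5p and miR-144-3p (loess -0.38 and -0.28), 0.40 and -0.79 with the siRNAs, -0.92 with miR-204-5p in MDA-MB-231, and 1.80 through Cy5 alone with miR-130-5p. ADAMTS2, ADAMTS3, ADAMTS5, ADAMTS9 and ADAMTS15 passed 1 on 1 array each and in each case through Cy5 alone, with a bound of at most 1.08-fold or none. ADAMTS3 had -0.62 to 0.24 on the 5 arrays where it was well above background in both channels, and ADAMTS9 had 0.47 and -0.18 with miR-204-5p in SW1990 and MDA-MB-231. ADAMTS19 had a ratio of -1.27 with si-PIR-3 at a mock intensity of 28.7 (loess -0.15), and was seen through Cy5 alone on the other 7 arrays, at -0.59 to 1.25. Most of these ADAMTS values thus come from spots that were not far above the local background, which was 16 to 22 at the median.

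TIMP2 had a ratio below -1 in SK-MES-1 with either strand of miR-144, and nearly the same ratio by either processing. Its probe lies at chr17:76849063-76849122 on hg19. In SK-MES-1, its intensity was 10782 in mock and 6719 in transfected cells with miR-144-5p, and 9576 and 8058 with miR-144-3p. The TIMP2 ratio was -1.62 with miR-144-5p and -1.22 with miR-144-3p, and the loess ratios were -1.55 and -1.17. On the other 6 arrays it lay between -0.10 and 0.38, so that both miR-144 values stood apart from all the rest. It was the member at -1 or less on both miR-144 arrays, as 0.458% of the genes measured on both were. These arrays share the mock line, and the 2 strands are different molecules rather than replicates, so no test was made. TIMP3 had -0.52 and -0.63 on the miR-144 arrays and, with miR-204-5p, 0.06 in MDA-MB-231 and -0.43 in SW1990. TIMP4 had -0.33 and -0.16 on the miR-144 arrays and -0.45 to 0.44 on the others where it was measured. TIMP1 had a ratio of 0.08 and 0.04 on the miR-144 arrays, of -0.39 and -0.23 with the siRNAs, -0.19 and -0.51 with miR-130-5p and miR-130-3p, and was within 0.03 of 0 on both miR-204-5p arrays. Of the 4 inhibitors in SK-MES-1, TIMP1 alone was thus not below 0 with miR-144.

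The other 14 of the 18 measured members that did not pass 1 on any array were MMP7, MMP10, MMP15, MMP16, MMP17, MMP19, MMP23B, MMP25, MMP26, MMP27, ADAMTS4, ADAMTS7, ADAMTS10 and ADAMTS16, and their ratios lay between -0.78 (MMP25 with miR-144-3p) and 0.89 (MMP23B with miR-130-5p). MMP7 had 0.40 and 0.54 on the miR-144 arrays of SK-MES-1, where it was bright, and -0.67 and 0.80 on the miR-130 arrays of PANC1, where it was dim. ADAMTS7 had 0.59 with miR-130-5p and -0.10 to 0.23 on the other arrays, but its second probe had 0.04 with miR-130-5p.

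**Figure D3:**
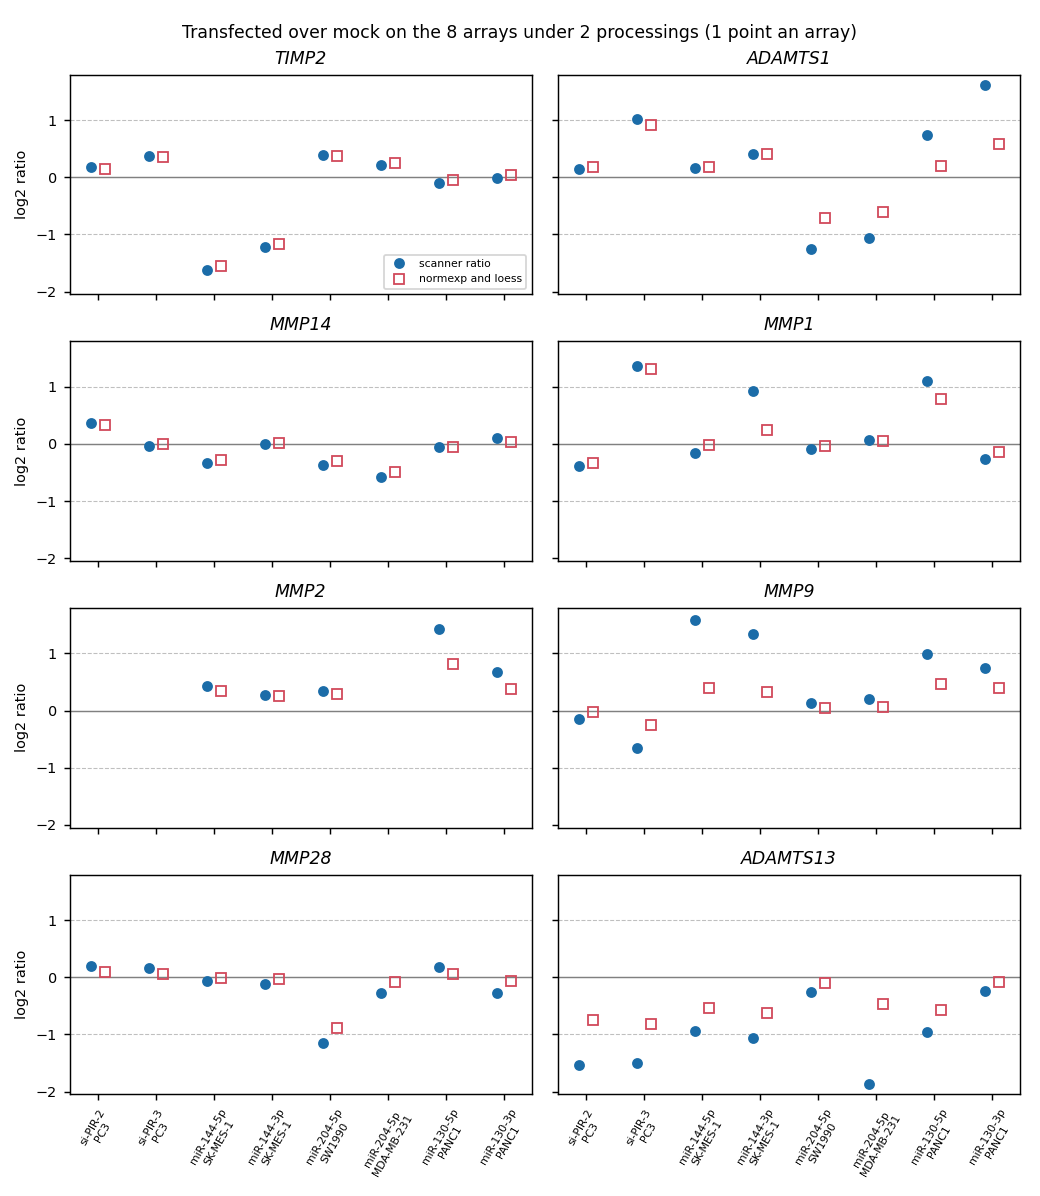
Log2 ratio of transfected over mock cells for 8 members (panels) on the 8 arrays (horizontal axis), as the scanner ratio (filled circles) and the loess ratio (open squares), with dashed lines at -1 and 1. Both ratios nearly coincide for TIMP2 and MMP14, whereas for MMP9 and ADAMTS13 the loess ratio lies much nearer to 0.

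A test was possible where 2 arrays could be read together. For the siRNAs against PIR, 27 members measured on both arrays entered a fit over 22435 genes with limma. No member was called lower or higher (0% of all genes were called in either direction), and at an unadjusted p under 0.05 there were 1 lower and 3 higher members, against 4.23% and 6.17% of all genes. Both loess processings also called 0 members and 0 genes here. ADAMTS13 had a mean ratio of -1.51 (SE 0.17, lower on 2 of 2 arrays, limma adjusted p = 0.403). The members that were higher at the unadjusted threshold were MMP24 with a mean of 0.82, MMP3 with 1.32 and ADAMTS9 with 1.38, the last 2 through Cy5 alone. MMP1 had a mean of 0.49 (SE 0.48, limma adjusted p = 0.722), in which the opposite values of the 2 siRNAs are averaged. ADAMTS1 had a mean of 0.58 (SE 0.28, limma adjusted p = 0.530).

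For miR-204-5p, 23 members entered a fit over 20462 genes in which SW1990 and MDA-MB-231 served as the 2 replicates, so that differences between the lines count as error. No member was called (0% of all genes were), and at an unadjusted p under 0.05 there were 2 lower and 1 higher members, against 8.14% and 11.1% of all genes. ADAMTS1 had a mean ratio of -1.15 (SE 0.11, lower in 2 of 2 lines, limma adjusted p = 0.209). MMP14 had a mean of -0.47 (SE 0.12, lower in 2 of 2 lines, limma adjusted p = 0.224), and ADAMTS17 had 0.87 (SE 0.15, limma adjusted p = 0.213). With the loess ratio, ADAMTS1 and MMP14 were called lower, at limma adjusted p-values of 0.0235 and 0.0496, as were 2.96% of all genes, and no member was called higher, as were 3.62% of all genes. The loess means of ADAMTS1 and MMP14 were -0.67 and -0.40. Whether ADAMTS1 and MMP14 pass the threshold therefore depended on how the ratios were made, while their direction did not. MMP28, which was low in SW1990, had a mean of -0.72 (SE 0.27, limma adjusted p = 0.289).

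Of 20 partners of pericellular proteolysis (plasminogen activators, furin-like convertases, protease inhibitors and others), 14 to 19 were measured on each array. PLAT, the tissue plasminogen activator, had ratios of -1.36 and -1.19 with the siRNAs and -1.41 and -0.60 with miR-144-5p and miR-144-3p, from mock intensities of 3226 to 3659, and the loess ratios on the first 3 arrays were -1.35, -1.17 and -1.40. With miR-204-5p, PLAT had -0.64 in SW1990 and -0.58 in MDA-MB-231, and with miR-130-3p in PANC1, where it was seen through Cy5 alone at a mock intensity of 22.5, it had 2.74 (loess 0.31). RECK, a membrane-anchored MMP inhibitor, had 1.14 and 1.19 with the siRNAs (loess 0.72 and 0.68) and 0.13 to 0.94 on the other arrays. TFPI2, a Kunitz-type protease inhibitor, had 1.27 with si-PIR-2 and 0.08 with si-PIR-3, and in PANC1 2.31 and 2.28 through Cy5 alone, at mock intensities of 27.2 and 26.2. On the other arrays where TFPI2 was measured, it had 0.19 to 0.32. ADAM17, a sheddase of cell-surface proteins, had -1.04 with si-PIR-2 (loess -0.67) and 1.12 with miR-130-5p (loess 0.86), and -0.22 to 0.58 on the other arrays.

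Of 12 AP-1 and ETS factors, 11 or 12 were measured on each array. With miR-130-5p, 5 (FOS, FOSB, FOSL2, JUN and JUNB) had a ratio of 1 or more (7.59% of all measured genes) and 1 (ETV1) had -1 or less (6.23%), and with miR-130-3p 3 (FOS, FOSB and ETV1) were high (6.42%) and 1 (FOSL1) was low (1.92%). With si-PIR-2, 3 (FOSB, ETS1 and ETS2) were high (5.81%), and with miR-144-5p 2 (FOS and FOSL1) were (4.12%), with 0 low on both arrays (2.90% and 1.96%). None passed 1 in either direction with si-PIR-3, miR-144-3p or miR-204-5p in either line. FOSL1 had 1.05 with miR-144-5p and -1.57 with miR-130-3p (loess 0.99 and -1.42). FOS had 1.70 and 1.91 with miR-130-5p and miR-130-3p at mock intensities of 36.9 and 34.7 (loess 0.63 and 0.76).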

How the data were processed

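For each of the 8 arrays the authors deposited the scanner output, in which spot brightness and local background in Cy3 and Cy5 stand as linear intensity values. It also holds a log10 ratio (Cy5 divided by Cy3) that the scanner software made by detrending and dye normalization, and the value table that the authors deposited is identical to it (maximum deviation 0). The log10 ratios were converted to log2 (scanner ratio). Spots that the software marked as outliers and control spots were left out, spots of a probe were averaged, and the probe with the highest mean log2 intensity stood for a gene. The 8 arrays lay on 1 slide and in 1 scan, so no batch could be tested, and their number limits the precision. The loess ratio came from normexp with an offset of 50 and loess within each array (limma 3.58.1, R 4.3.3).

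Mean ratios of the 2 si-PIR arrays and of the 2 miR-204-5p arrays were fitted with limma (lmFit, eBayes) and set against 0 over all genes measured on both, with Benjamini-Hochberg adjustment at 0.05. The mock RNA of a line counts as 1 control, whose own spread is left out. The SE and p-values rest on the spread of a gene between the 2 arrays of a test, which eBayes draws toward a spread pooled over all genes. The spread between the 2 arrays holds differences between the 2 siRNAs or between the 2 lines, besides any technical spread. The steps were tested on simulated data. Members and lists were chosen with earlier results of these data known. Values on every array are given for MMP1, MMP2, MMP9, MMP14, ADAMTS1, TIMP1, TIMP2, TIMP3 and every member past a ratio of 1, and for list genes past 1 on at least 2 arrays. Further members were named with their values in view. Gene names and hg19 coordinates are those of the array design, and all 46 accessions carried the same symbol in RefSeq. Exons and untranslated regions were not assigned. Figures were drawn with matplotlib 3.10.9.

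Alternatives were the loess ratio, loess without background correction, centring on the median, a filter on both channels, no filter, the mean over probes, the value table, all 8 arrays in 1 fit, each array left out, ratio thresholds of 0.58 and 1.5, other detection rules and 2 other scalings of the mock level. One gene of the list of proteolysis partners is not reported here.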

Additional observations from a re-analysis of the deposited data

Results flagged for a closer look

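ADAMTS19 had ratios of opposite sign in the 2 lines that received miR-204-5p, with a scanner log2 ratio of -0.59 in SW1990 and of 1.25 in MDA-MB-231. In both lines only the Cy5 channel was well above background, so that no size is read from either value, and the loess ratios were -0.04 and 0.12. The difference between the lines was not tested.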

How the results depend on the processing

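No member value past a threshold changed its sign under any alternative. The number of members past a log2 ratio of 1, in the order si-PIR-2, si-PIR-3, miR-144-5p, miR-144-3p, miR-204-5p in SW1990, miR-204-5p in MDA-MB-231, miR-130-5p and miR-130-3p, was 5, 7, 3, 5, 4, 5, 5 and 5. By the loess ratio it was 0, 1, 1, 1, 0, 0, 0 and 0, and by loess without background correction 2, 2, 1, 1, 2, 0, 1 and 0. At a threshold of 0.58 it was 10, 12, 6, 12, 8, 8, 12 and 10. At a threshold of 1.5 it was 3 with si-PIR-2, 2 with si-PIR-3, 1 with miR-144-3p, 0 and 1 with miR-204-5p in SW1990 and MDA-MB-231, and 2 and 3 with miR-130-5p and miR-130-3p. With both channels well above background it was 3 and 4 with the siRNAs and 3 and 2 with miR-130-5p and miR-130-3p. For miR-204-5p, limma called 2 members lower by the loess ratio and 2 by loess without background correction, against 0 by the scanner ratio. The offset of 50 in the loess ratio brings the ratios of dim spots nearer to 0, and other causes of these differences were not tested. Over the alternatives, the adjusted p of ADAMTS1 with miR-204-5p ranged from 0.0095 to 0.732 and that of MMP14 from 0.0428 to 0.886. Counts of detected members kept within 1.5 times in all alternatives. Leaving out either array left 0 members called in both tests, with the lone array assumed to vary like the other pair. No paired analysis was possible because each transfection had 1 array and the groups shared fewer than 2 replicate numbers. Most members lie close to background, which limits the size of ratio that can be read.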
